A study of Mus musculus with 5 samples.

Results

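Dermal fibroblasts are the mesenchymal cells that build the connective tissue of the skin. In the embryo the dermis lies just under the epidermis, and its upper layer receives canonical Wnt signals, in which beta-catenin acts with the TCF and LEF factors on target genes. The upper layer goes on to make hair follicle papillae, and the deeper layer makes reticular dermis, fascia and fat. In a limb these cells also carry positional codes laid down during patterning, with *Lmx1b* on the dorsal side, the *Hox13* genes at the distal end, *Tbx5* in the forelimb and *Pitx1* and *Tbx4* in the hindlimb.

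The limb dermal fibroblasts described here were 5004 cells chosen by a rule on their own transcripts, out of 49801 limb cells that passed the quality limits (10.0%). The rule took cells of the forelimb and hindlimb libraries with 100 to 9000 genes detected and at most 10% mitochondrial counts. Each cell held at least 1 unique molecular identifier (UMI, 1 counted transcript molecule) of *Twist2*, a bHLH factor of dermal precursors, and UMIs of at least 2 of the 5 genes *Crabp1*, *Irx1*, *Bcl11b*, *Lix1* and *Nrgn*. Cells with a UMI of *Cdh1* (epithelial cadherin), *Cdh5* (endothelial cadherin) or *Myod1* (myogenic factor) were left out. The cells were compared with 24523 other limb cells that passed the same limits and held a UMI of *Prrx1* or *Pdgfra*, genes of limb mesenchyme, called other stromal cells below.

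The study sequenced 5 single-cell libraries of mice, labelled C57BL/6N (the methods name C57BL/6J), 3 of penis at postnatal day 6 and 1 each of forelimb and hindlimb at embryonic day 15, made with a droplet kit. Limbs were dissected from several male embryos, and the labels name no treatment and no engineered allele. How many embryos went into each limb library is not stated. There was 1 library per limb, so differences between forelimb and hindlimb have no replicate, and the comparisons within limbs use both libraries as the units.

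The forelimb library held 2695 of these cells, 10.4% of its 25865 kept cells (exact 95% interval 10.0 to 10.8%). The hindlimb library held 2309, 9.65% of 23936 (9.28 to 10.0%). Dermal fibroblasts had a median of 6223 UMIs per cell in the forelimb and 7487 in the hindlimb, against 5402 and 5913 in the other stromal cells. Cells scored as doublets made up 7.20% and 4.42% of the dermal fibroblasts and 3.96% and 2.94% of the other stromal cells. The score assumed 0.8% doublets per 1000 barcodes, in libraries of 28266 and 25937 barcodes. It marked 2.95% and 2.12% of kept cells, below that assumed rate, so leaving out marked cells need not remove all doublets. Both limb libraries shared 203 cell barcodes, 3 of them among dermal fibroblasts.

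The genes of the rule describe the cells and are not a finding. *Twist2* stood at 479 CPM in forelimb and 450 CPM in hindlimb dermal fibroblasts, with a median of 3 UMIs per cell in both. CPM is the usual scaling of the UMIs of a gene, summed over the cell set, by all UMIs of that set. *Crabp1*, a retinoic acid binding protein, was found in 96.6% and 97.1% of the cells, at 1148 and 953 CPM. The zinc finger factor gene *Bcl11b* was found in 66.8% and 65.3%, at 176 and 151 CPM, and the Iroquois factor gene *Irx1* in 59.6% and 56.0%, at 144 and 116 CPM. *Lix1* was found in 60.1% and 52.5% of the cells, at 162 and 116 CPM. *Nrgn*, a calmodulin-binding protein gene, was found in 35.9% and 30.1%, at 95.2 and 82.5 CPM. A cell without a UMI of a gene may still express it. All 5 marker genes were found together in 399 forelimb cells (14.8%) and 284 hindlimb cells (12.3%). Of the dermal fibroblasts, 92.5% in the forelimb and 94.2% in the hindlimb held a *Prrx1* or *Pdgfra* UMI.

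The rule sets a limit on the number of marker genes seen in a cell. Among *Twist2*-positive cells without an exclusion gene, those with only 1 of the 5 marker genes lie just outside the rule (1819 forelimb and 1761 hindlimb cells) and those with 2 lie just inside it (923 and 981). Genes for the following values were chosen after their values were seen. *Apcdd1*, a membrane antagonist and target of Wnt signalling, stood at 58.7 CPM just outside the rule and 92.8 CPM just inside it in the forelimb, and reached 273 CPM in cells with all 5 marker genes. In the hindlimb the same levels were 56.8, 91.3 and 238 CPM. *Col7a1*, the collagen of the anchoring fibrils under the epidermis, went from 14.3 to 45.7 to 163 CPM in the forelimb and from 11.9 to 29.9 to 154 CPM in the hindlimb. *Ebf2*, a factor of fascia and fat lineages, was at 156, 102 and 28.7 CPM in the forelimb and at 171, 108 and 18.9 CPM in the hindlimb. *Igf1* fell along the same series, with 344, 236 and 58.3 CPM in the forelimb and 307, 181 and 32.7 CPM in the hindlimb. Median UMIs were 6316 and 6587 just outside the rule, 6328 and 7402 just inside it and 7037 and 7817.5 with all 5 markers, and doublet scores marked 4.12% and 3.07%, 5.96% and 3.16%, and 8.77% and 4.93%. Cells just inside the rule lay between the cells outside it and the cells with all 5 markers for these 4 genes in both limbs. These are sums over cells, which do not tell a gradual change from a changing mixture of cells.

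**Figure D1:**
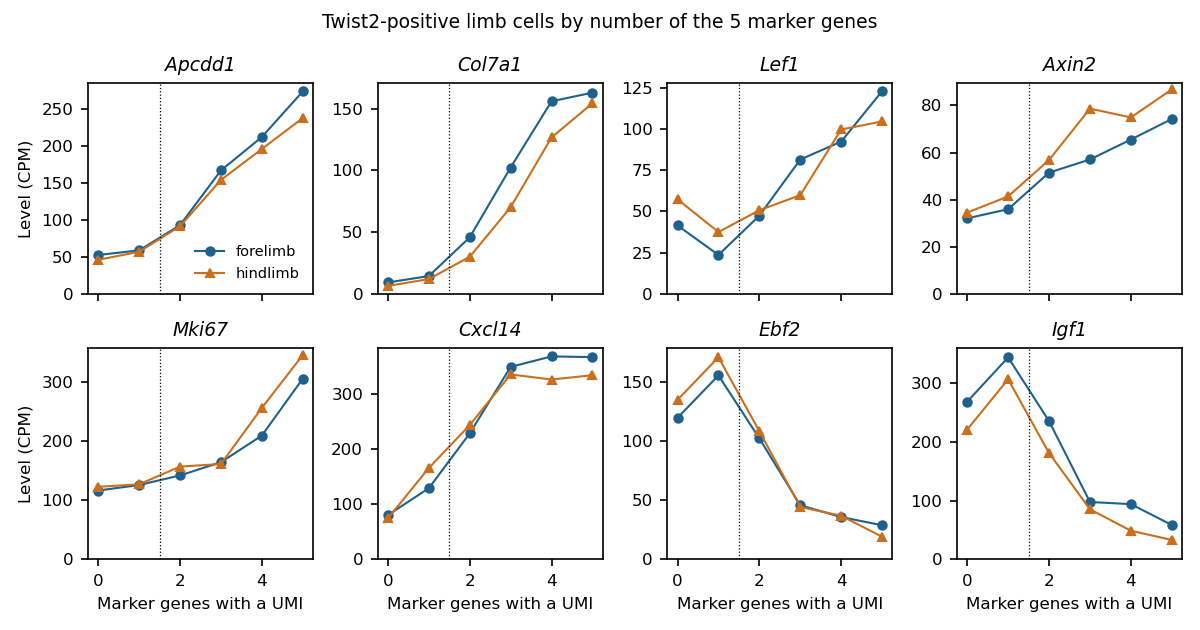
Levels (CPM) of 8 genes in *Twist2*-positive limb cells without an exclusion gene, by how many of the 5 marker genes had a UMI (horizontal axis), with circles for the forelimb and triangles for the hindlimb; the dotted line marks the rule. *Apcdd1* and *Col7a1* were highest in cells with all 5 marker genes (273 and 163 CPM in the forelimb), and *Ebf2* and *Igf1* were lowest there (28.7 and 58.3 CPM).

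Against the other stromal cells, dermal fibroblasts carried more transcripts of Wnt target, Iroquois and *HoxC* genes, and fewer of cartilage and tendon genes. Among 20257 genes tested outside the rule, 484 were higher (2.39%) and 735 lower (3.63%). A gene was called when the adjusted p of edgeR's quasi-likelihood test was under 0.01, the change was at least 2-fold, and both limbs moved the same way. The groups were cut from the same cells by the rule, so these calls describe the cells and are no independent evidence of a cell type. The test weighs each difference against its variation between the forelimb and the hindlimb library, with 1 residual degree of freedom. That variation is moderated by information shared across all genes. The other stromal cells may hold *Cdh1*, *Cdh5* or *Myod1* UMIs (6.61% and 6.32% of them did), which the rule removes from the dermal fibroblasts. Against *Twist2*-positive stromal cells alone, 267 genes were higher and 323 lower. There 5 Wnt target, 3 Iroquois or Tbx and 4 *HoxC* genes were higher, and only 1 chondrocyte and 1 tendon gene were lower. By DESeq2, against all other stromal cells, 2 *HoxC* genes were higher.

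*Col7a1* showed the largest rise of the 78 higher genes that reached 50 CPM in dermal fibroblasts of both limbs. It stood at 102 CPM in forelimb and 74.1 CPM in hindlimb dermal fibroblasts, against 8.14 and 5.84 CPM in other stromal cells, which gives a log2 fold change of 3.70 ± 0.06. Errors of log2 fold changes are standard errors derived from the test. They rest on the moderated variation, so they can be smaller than the spread of a gene between the limbs. *Cadps*, which acts in the release of dense-core vesicles, stood at 121 and 197 CPM against 15.6 and 17.7 CPM (3.26 ± 0.09). *Casz1*, a zinc finger factor gene, stood at 59.3 and 53.9 CPM against 8.96 and 7.87 CPM (2.79 ± 0.06). Each of these 3 genes was over 5 times higher in both limbs, and no level of a dermal fibroblast set fell into the range of the other stromal cells. The neural adhesion gene *Cntn4* (166 and 215 CPM against 26.6 and 35.1 CPM), the surface glycoprotein gene *Thy1* (78.4 and 67.9 against 14.6 and 11.6 CPM) and *Apcdd1* (166 and 145 against 31.8 and 30.4 CPM) followed, with log2 fold changes of 2.67, 2.52 and 2.36. *Frem1*, a basement membrane protein gene of the epidermal junction, rose by 2.30 on the log2 scale. The other genes among the 12 largest rises were *Pde7b* (2.29), *Pappa2* (2.23), *Cpxm2* (2.20), *Zfp536* (2.19) and *Irx5* (2.14).

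**Figure D2:**
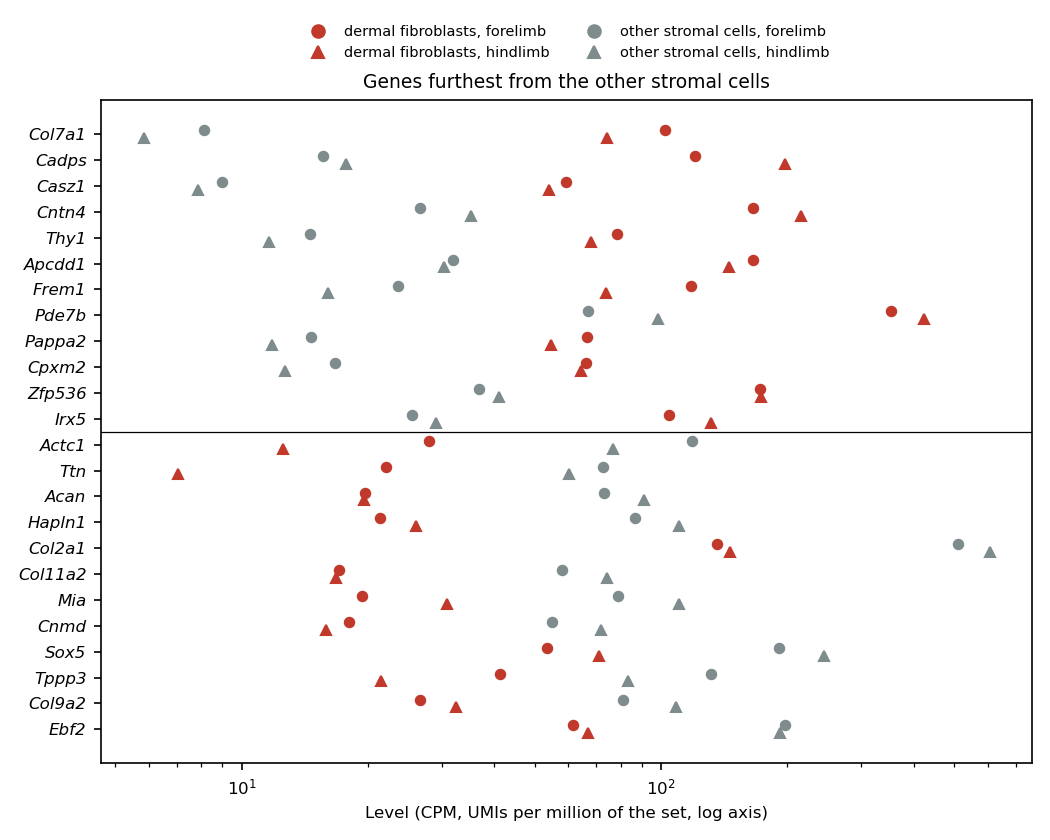
Levels (CPM, log axis) of the 12 genes with the largest rise and the 12 with the largest fall among genes past the threshold that reached 50 CPM in the higher set, in dermal fibroblasts (red) and other stromal cells (grey) of the forelimb (circles) and hindlimb (triangles). *Col7a1* stood at 102 and 74.1 CPM in dermal fibroblasts against 8.14 and 5.84 CPM, and *Col2a1* at 136 and 146 CPM against 510 and 607 CPM.

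The 12 largest falls were mostly genes of cartilage and muscle. *Col2a1*, the main collagen of cartilage, stood at 136 CPM in forelimb and 146 CPM in hindlimb dermal fibroblasts, against 510 and 607 CPM in other stromal cells, a log2 fold change of -1.94 ± 0.04. The cartilage proteoglycan gene *Acan* (-2.02), the link protein gene *Hapln1* (-2.02), *Col11a2* (-1.92), *Mia* (-1.88), *Cnmd* (-1.85), *Sox5* (-1.77) and *Col9a2* (-1.64) were lower too. Against *Twist2*-positive cells all of these cartilage genes but *Mia* lost their calls, with log2 fold changes from -0.91 to -0.73. Outside cartilage, *Ebf2* stood at 61.8 and 67.1 CPM against 198 and 192 CPM (-1.56 ± 0.05), and *Tppp3* had a log2 fold change of -1.76. The muscle genes *Actc1* (-2.26) and *Ttn* (-2.22) lost their calls once other stromal cells with a *Cdh1*, *Cdh5* or *Myod1* UMI were left out, and with matched depth as well *Ttn* had a log2 fold change of 0.057.

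Markers of the upper, papillary layer of the dermis were mostly higher. Of 9 tested, 7 were higher and 0 lower, with a median log2 fold change of 1.26, against -0.01 over all genes tested. They included *Lrig1* (1.66 ± 0.05), *Col23a1* (1.44 ± 0.04), the netrin gene *Ntn1* (1.19 ± 0.06) and *Prdm1*, which marks papillary precursors (1.22 ± 0.12). *Trps1* had a log2 fold change of -0.60 and *Dpp4* of -0.02, and neither was called. Of 13 genes of the lower dermis and fascia, 0 were higher and 1 was lower, the fatty acid binding protein gene *Fabp4* (3.93 and 1.04 CPM against 28.8 and 17.0 CPM). *Fabp4* lost its call without other stromal cells that held an exclusion gene. The other 12, among them *Dlk1* (-0.62), *Mfap5* (-0.77) and *Clec3b* (-0.89), stayed below a 2-fold change. When the other stromal cells were limited to those with a *Twist2* UMI (2507 and 2335 cells), 2 upper dermis genes were higher and 1 lower, and 0 lower dermis genes were higher and 5 lower. Of 10 genes of the dermal condensate, the cluster of cells that forms the hair follicle papilla, 1 was called, *Gal* (4.61 and 1.76 CPM against 0.99 and 0.94 CPM), and 0 with matched depth or against *Twist2*-positive cells. *Sox2*, a condensate factor, was at 1.85 and 1.26 CPM against 0.62 and 1.11 CPM.

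Target genes of canonical Wnt signalling were mostly higher: 8 of 11 tested, with 0 lower and a median of 1.40. *Apcdd1*, *Axin2* and *Lef1* are in both this list and the upper dermis list. *Sp5*, a direct Wnt target and zinc finger factor, stood at 22.3 CPM in the forelimb and 15.1 CPM in the hindlimb, against 1.05 and 0.54 CPM in other stromal cells (4.60 ± 0.14). *Nkd1* and *Nkd2*, feedback inhibitors inside the cell, rose by 1.85 and 1.67 on the log2 scale, and *Axin2*, the scaffold of the complex that degrades beta-catenin, by 1.40. The factor genes *Tcf7* and *Lef1* rose by 1.61 and 1.26. *Lef1* stood at 77.7 and 69.0 CPM against 29.2 and 33.7 CPM. *Twist1* rose by 1.16, while *Notum* (0.87), *Znrf3* (0.46) and *Rnf43* (-0.25) were not called. With other stromal cells limited to *Twist2*-positive cells, 5 of these genes were higher and 0 lower, and *Axin2*, *Lef1* and *Twist1* were not called.

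Shares of cells gave the same order at equal depth, among cells with at least 4000 UMIs. With each cell thinned to 4000 UMIs, *Sp5* was found in 8.97% of forelimb and 6.93% of hindlimb dermal fibroblasts, and in 0.372% and 0.196% of other stromal cells. Endothelial cells, which served as the background of free RNA, gave 0.584% and 0.492%. Whether this set also held stromal cells or doublets was not tested. *Pecam1*, an endothelial gene, was at similar levels in dermal fibroblasts and other stromal cells, as given below. *Lef1* was found in 22.3% and 19.9% of dermal fibroblasts, in 7.67% and 8.96% of other stromal cells and in 5.09% and 3.87% of endothelial cells. In limb epithelial cells, where *Lef1* is also expressed, the share was 25.9% and 25.8%. Without thinning, *Sp5* was found in 14.4% and 11.8% of dermal fibroblasts and *Lef1* in 32.5% and 31.2%.

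*Sp5* and *Axin2* were both called higher than in other stromal cells. Their promoters are shown as examples of a Wnt target with and without TCF/LEF letters at its start. The sequences are from RefSeq for GRCm38.p6 (mm10) and run from 250 bases before to 50 bases after the transcript start, 5′ to 3′ on the strand of the gene. Capitals mark CTTTGAT or CTTTGTT on either strand, the core letters to which TCF and LEF factors bind.
*Sp5* (chr2:70474673-70474972, plus strand): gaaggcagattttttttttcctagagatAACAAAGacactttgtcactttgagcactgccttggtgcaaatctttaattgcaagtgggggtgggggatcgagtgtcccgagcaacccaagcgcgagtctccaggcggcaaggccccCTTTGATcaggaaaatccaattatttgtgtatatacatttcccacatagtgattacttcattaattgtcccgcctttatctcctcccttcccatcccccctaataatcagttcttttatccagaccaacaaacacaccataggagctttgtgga
*Axin2* (chr11:108920099-108920398, plus strand): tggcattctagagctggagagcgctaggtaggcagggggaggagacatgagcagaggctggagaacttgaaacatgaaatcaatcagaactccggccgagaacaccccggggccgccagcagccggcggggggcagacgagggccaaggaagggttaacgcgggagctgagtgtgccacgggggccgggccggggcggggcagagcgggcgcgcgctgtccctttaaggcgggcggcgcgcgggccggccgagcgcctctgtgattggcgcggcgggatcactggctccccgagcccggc
The *Sp5* window holds 2 matches, which begin 222 and 104 bases before the start, and the *Axin2* window holds 0. Of the 8 genes called higher in the Wnt target list, 7 had a promoter in the table, and 1 of these, *Sp5*, held a match. Among all 27025 promoters of 300 bases, 9.28% held one, as did 9.28% of the 334 promoters available for genes higher in dermal fibroblasts. These are matches of letters and no measure of binding.

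Wnt ligands and their agonists were divided. Of 13 tested, 4 were higher and 1 was lower. *Rspo1*, a secreted agonist that raises the number of Wnt receptors, stood at 53.4 and 24.5 CPM against 3.18 and 1.68 CPM (4.02 ± 0.09). *Wnt4* (1.44), *Wnt6* (1.23) and *Wnt11* (1.17) were higher, and *Rspo2* was lower at 5.19 and 4.28 CPM against 13.1 and 15.4 CPM. Among 12 secreted or membrane antagonists, 4 were higher and 2 lower. *Sfrp5* (13.5 and 16.1 CPM against 1.39 and 1.42 CPM) and *Dkk1* (23.6 and 17.9 against 5.51 and 4.61 CPM) rose by 3.43 and 2.07 on the log2 scale, *Kremen1* by 1.40 and *Wif1* by 1.06. *Wif1* was not called without the exclusion-gene cells or against *Twist2*-positive cells. *Dkk3* (-1.18) and *Kremen2* (-1.32) were lower. *Kremen2* was at under 2 CPM in every set and was not called by DESeq2 or without the exclusion-gene cells. The median over the antagonists was -0.65, so most of the list lay below 0 while its called members were mostly above it. Of 18 receptors, 1 was higher, *Fzd10* (1.24), and 3 were lower, *Fzd8*, *Fzd9* and *Lgr6*. Against *Twist2*-positive cells 2 ligands or agonists were higher and 2 lower, with *Wnt6* and *Wnt11* no longer called, and 0 receptors were called. Of the antagonists 3 were higher and 1 lower there, and *Dkk3* was not called.

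Other signalling pathways were mixed. Of 29 BMP genes, 2 were higher, among them the secreted antagonist *Grem1* (30.3 and 23.6 CPM against 12.3 and 9.71 CPM, 1.33 ± 0.07). The 6 lower members were the ligands *Bmp5*, *Bmp6*, *Gdf5* and *Gdf6*, the receptor gene *Bmpr1b* (47.1 and 90.7 CPM against 142 and 177 CPM) and *Chrdl1*. Against *Twist2*-positive cells 2 BMP genes were higher and 2 lower, and *Bmp6*, *Gdf5*, *Gdf6* and *Chrdl1* were not called. Of 17 retinoic acid genes, apart from *Crabp1* of the rule, *Rxrg* was higher and *Rbp4* and the retinaldehyde dehydrogenase genes *Aldh1a2* and *Aldh1a3* were lower. *Rxrg* lost its call with matched depth and by DESeq2, and against *Twist2*-positive cells 2 retinoic acid genes were lower. Of 13 hedgehog genes 1 was called, *Ihh*, which was lower, and of 21 FGF genes 1 was called, *Fgfr4*, lower as well. Without other stromal cells that held an exclusion gene *Fgfr4* was not called, and against *Twist2*-positive cells neither *Ihh* nor *Fgfr4* was. In each of these settings, and by DESeq2, 1 other FGF gene was called higher. Axon guidance genes had 8 of 24 higher and 2 lower, with *Gdnf* (1.47), *Sema5a* (1.30) and *Slit3* (1.24) at the top. With other stromal cells limited to *Twist2*-positive cells, none of these called genes kept its call, and 1 other axon guidance gene was higher.

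Of 12 Iroquois and Tbx genes, 4 were higher and 1 lower. *Irx2* stood at 55.3 and 41.2 CPM against 5.61 and 6.95 CPM (2.97 ± 0.13), *Irx3* at 49.9 and 64.9 CPM against 7.25 and 8.65 CPM (2.89 ± 0.06), and *Irx5* at 104 and 131 CPM against 25.5 and 29.1 CPM (2.14 ± 0.05). *Irx6* rose by 1.33, but was not called by DESeq2 or against *Twist2*-positive cells. *Irx4*, the member called lower, was at 0.32 CPM or less in every set. *Irx2* (chr13:72628820-72634198) lies on the same chromosome as *Irx1* of the rule (chr13:71957921-71963723), and *Irx5* (chr8:92357625-92376286) lies on the other Iroquois chromosome (GRCm38, GENCODE vM21). Among the *Tbx* genes, *Tbx15* had a log2 fold change of 0.13 and *Tbx18* of 0.08.

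*Hox* genes split by cluster and position. Of 8 *HoxC* genes, 5 were higher and 0 lower (median 1.28). One of the 5, *Hoxc10*, had 1 UMI in forelimb dermal fibroblasts, so its call rested on the hindlimb (43.1 against 21.0 CPM), and it was lost with matched depth. *Hoxc6* stood at 14.6 and 16.0 CPM against 2.20 and 3.92 CPM (2.39 ± 0.15), *Hoxc4* at 12.1 and 9.74 CPM against 1.46 and 3.68 CPM, and *Hoxc8* at 4.92 and 11.9 CPM against 0.34 and 5.53 CPM. Of 19 *HoxA* and *HoxD* genes, the 4 called were all higher and came from the early end of the *HoxD* cluster, *Hoxd1* (2.24), *Hoxd3* (1.98), *Hoxd8* (1.62) and *Hoxd4* (1.53). The late *HoxD* genes *Hoxd11* (-0.52), *Hoxd12* (-0.97) and *Hoxd13* (-0.55) were not called. With matched depth 3 *HoxC* genes were called, and by DESeq2 2 *HoxC* and 3 *HoxA* or *HoxD* genes, all higher. Among 26 other homeobox genes of the limb, 3 were higher, *En1* and *Meis1* among them, and 8 were lower, against 4 by comparison with *Twist2*-positive cells. *En1* stood at 24.6 and 26.2 CPM against 9.17 and 6.92 CPM. Of 30 transcription factor genes of fibroblasts, *Zeb2* (1.28), *Twist1* (1.16) and *Bcl11a* (1.14) were higher, and 5 were lower, with *Ebf2*, *Foxc1* (-1.55) and *Ebf3* (-1.24) among them. Against *Twist2*-positive cells 0 of these genes were higher and 3 lower.

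Matrix genes moved little apart from a few members. Of 23 collagens, *Col7a1* and *Col23a1* were higher, and the basement membrane collagens *Col15a1* (-1.33) and *Col18a1* (-1.64) were lower. *Col15a1* lost its call without the exclusion-gene cells, and against *Twist2*-positive cells neither *Col15a1* nor *Col23a1* was called. The fibrillar collagens *Col1a1* (4965 and 4520 CPM against 3198 and 2680 CPM) and *Col3a1* had log2 fold changes of 0.73 and 0.65 and stayed below the 2-fold limit. Of 30 matrix glycoproteins, the proteoglycan gene *Lum* was higher (1132 and 1008 CPM against 410 and 360 CPM, 1.51 ± 0.03) and *Fmod* was lower, and neither was called against *Twist2*-positive cells. All 20 cell division genes lay above 0, from 0.09 to 0.77, and 0 passed the 2-fold limit. *Mki67* stood at 187 and 200 CPM against 122 and 128 CPM, and was found in 30.3% and 30.2% of dermal fibroblasts against 21.0% and 19.4% of other stromal cells at 4000 UMIs. Endothelial cells, which also divide, gave 28.1% and 28.2%. Of 12 dissociation response genes 0 were called in either direction, with a median of 0.29. Over all genes tested, 2.39% were higher and 3.63% lower.

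Markers of other cell types were lower or not called. All 10 chondrocyte genes were lower (median -1.59, range -2.02 to -1.05), as were 3 of 5 tendon genes, with *Scx*, the tendon progenitor factor, at -1.97, and 2 of 6 osteoblast genes. With other stromal cells limited to *Twist2*-positive cells, 1 chondrocyte, 1 tendon and 0 osteoblast genes were lower. At matched depth, and by DESeq2, 1 osteoblast gene was lower. All 5 muscle genes, 3 of 5 endothelial, 3 of 5 epithelial, 1 of 5 pericyte, 1 of 4 smooth muscle, 1 of 5 Schwann and 3 of 5 red blood genes were lower. Without other stromal cells that held an exclusion gene, 0 muscle, 1 endothelial, 1 epithelial, 0 smooth muscle and 0 Schwann genes were lower. With matched depth 0 red blood genes were lower. The endothelial genes *Cldn5* (1.08 and 0.77 CPM) and *Emcn* (1.13 and 1.22 CPM) were near 0 in dermal fibroblasts, and *Pecam1* was at 136 and 129 CPM against 128 and 115 CPM. None of 5 immune and none of 4 melanocyte genes was called, where 2.39% of all genes tested were higher and 3.63% lower.

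**Figure D3:**
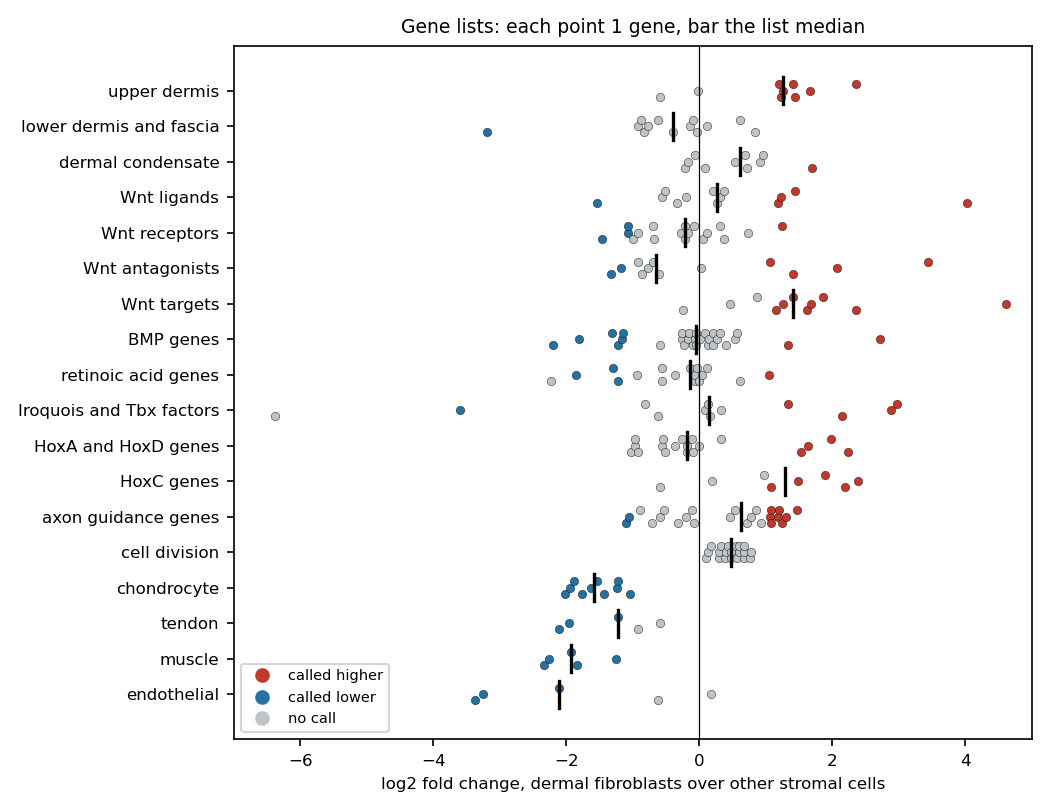
Log2 fold change of each gene of 18 lists, dermal fibroblasts over other stromal cells; red points were called higher, blue points lower and grey points not called, and the bar is the median of the list. The medians of Wnt targets (1.40) and upper dermis genes (1.26) lie above 0 and that of chondrocyte genes (-1.59) below it.

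Cells with and without a UMI of *Lmx1b*, the dorsal factor of limb mesenchyme, were compared. *Lmx1b* is not in the rule, and a cell without its UMI may still express it. A *Lmx1b* UMI was found in 441 forelimb and 518 hindlimb dermal fibroblasts. In cells thinned to 8000 UMIs the share was 19.1% and 23.4%, against 9.48% and 10.7% of endothelial cells, and the part of free RNA in the split was not tested. The positive cells were deeper, with medians of 8521 and 9438 UMIs against 5958 and 7141 in the negative cells. Of 16183 genes, 47 were higher (0.29%) and 11 lower (0.068%) in the positive cells. DESeq2 called 25 higher and 1 lower, and without the library term edgeR called 1 and 0. With cells matched on depth there were 48 higher and 48 lower, and 28 of the 47 were still called.

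*Gpc5*, a heparan sulphate proteoglycan gene, stood at 50.5 CPM in positive and 15.2 CPM in negative forelimb cells, and at 93.9 and 16.6 CPM in the hindlimb (2.14 ± 0.14). *Kera*, the keratocan gene, stood at 98.3 and 39.9 CPM in the forelimb and at 78.8 and 29.8 CPM in the hindlimb (1.33 ± 0.07). *Col8a1* rose by 1.28. The tendon gene *Tnmd* also rose, by 1.63, so that 2 of 5 tendon genes were higher. *Lrrc7* (1.54), *Mdga2* (1.36), *Kcnip4* (1.36) and *Adgrb3* (1.35), known from synapses, were also among the largest rises. *Mdga2* and *Adgrb3* lost their calls with matched depth, and *Kcnip4* by DESeq2. *Kcnip4* stood at 209 against 45.2 CPM in the forelimb and at 92.6 against 65.2 CPM in the hindlimb, less than 2-fold in the latter. Among all dermal fibroblasts, 10 cells held 37.1% (forelimb) and 24.2% (hindlimb) of the *Kcnip4* UMIs. The genes called higher spanned a median of 328 kb, against 24.1 kb over all genes tested. Whether intronic reads were counted is not stated, and the part of gene span in this result was not tested. Among the limb homeobox genes *Msx1* was higher (1.07), and among the Wnt ligands *Rspo1* was lower (34.0 against 59.1 CPM in the forelimb and 12.2 against 29.7 CPM in the hindlimb). With matched depth neither was called, and DESeq2 did not call *Msx1*. None of the 11 Wnt targets and none of the 16 *HoxA* and *HoxD* genes tested was called. Only 0.29% of all genes tested were higher and 0.068% lower, so lists of this size could well hold no call. No gene called lower reached 50 CPM in the negative cells of both limbs.

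Cells with and without a UMI of *Hoxa13* or *Hoxd13*, genes of the distal limb, were compared in the same way, and these genes are not in the rule either. A UMI of one of them was found in 456 forelimb and 557 hindlimb dermal fibroblasts, with medians of 8645 and 8920 UMIs against 5994 and 7218.5 in the rest. At 4000 UMIs *Hoxd13* was found in 7.38% and 9.71% of dermal fibroblasts and in 6.40% and 4.53% of endothelial cells, and *Hoxa13* in 4.07% and 6.67% against 1.70% and 3.20%. In the forelimb the *Hoxd13* share was thus close to that of endothelial cells, whose overlap with stromal cells was not tested. Of 16216 genes, 251 were higher (1.55%) and 119 lower (0.734%) in the *Hox13*-positive cells. With matched depth there were 221 higher and 220 lower, and only 165 of the 251 and 73 of the 119 were still called. DESeq2 called 182 and 76, and edgeR without the library term 59 and 17. All 16 genes named by the rule of size kept their call with matched depth and by DESeq2.

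**Figure D4:**
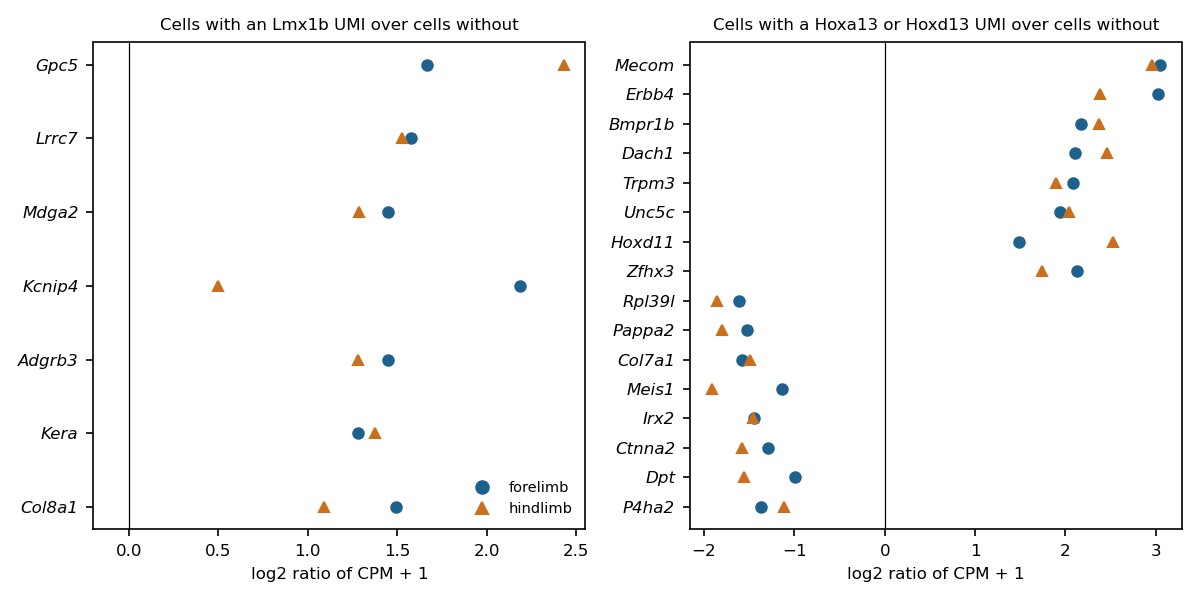
Log2 ratio of CPM + 1 in the forelimb (circles) and the hindlimb (triangles), left for dermal fibroblasts with an *Lmx1b* UMI over those without, right for cells with a *Hoxa13* or *Hoxd13* UMI over those without. *Mecom* stood at 489 against 58.4 CPM in the forelimb, and *Col7a1* at 40.4 against 123 CPM.

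Several transcription factor genes of the distal limb were higher in the *Hox13*-positive cells. Beside *Hoxd11* (1.95 ± 0.23), *Hoxd12* and *Hoxd10* rose by 2.59 and 1.64 on the log2 scale. *Msx1*, a target of BMP signals, stood at 49.1 against 6.55 CPM in the forelimb and at 44.5 against 5.00 CPM in the hindlimb (2.95 ± 0.13). *Msx2* (2.71), *Lhx9* (2.62) and *Lhx2* (1.99) were higher, as were *Tfap2b* (2.81) and *Tfap2a* (2.30). Of 25 limb homeobox genes, 6 were higher and 1 was lower. One of the 6 was *Lmx1b* (54.5 against 22.9 CPM in the forelimb and 66.7 against 32.1 CPM in the hindlimb), so both splits share cells. The lower one was *Meis1*, a factor of the proximal limb, which stood at 28.2 against 63.2 CPM in the forelimb and at 15.6 against 61.5 CPM in the hindlimb. The largest rises of all genes with 50 CPM were those of *Mecom* (2.95 ± 0.06), *Erbb4* (2.68), the BMP receptor gene *Bmpr1b* (2.25) and *Dach1* (2.23), followed by *Trpm3*, *Unc5c* and *Zfhx3*. Called genes spanned a median of 178 kb when higher and 22.8 kb when lower, and the part of gene span was not tested.

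*HoxC* genes and early *HoxD* genes were lower in the *Hox13*-positive cells. Of 7 *HoxC* genes tested, 6 were lower and 0 higher (median -2.34). *Hoxc6* stood at 1.45 against 19.0 CPM in the forelimb and at 6.01 against 20.6 CPM in the hindlimb (-2.42 ± 0.33). *Hoxc10* stood at 12.7 against 57.0 CPM in the hindlimb and at 0 against 0.06 CPM in the forelimb, so its fold rested on the hindlimb. So did that of *Hoxc9*, the gene at the median, with 0 against 0.36 CPM in the forelimb. *Hoxd4* (-2.14), *Hoxd8* (-1.92) and *Hoxd3* (-1.48) were lower too. DESeq2 called 3 of the 6 *HoxC* genes lower, without *Hoxc6*, *Hoxc9* and *Hoxc10*, and of the 3 *HoxD* genes *Hoxd8* alone.

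Some genes that were higher in dermal fibroblasts than in other stromal cells were lower in the *Hox13*-positive cells, and others were higher. The *Hox13*-positive cells held fewer marker genes: 213 of 456 in the forelimb and 241 of 557 in the hindlimb had at least 3 of the 5, against 1559 of 2239 and 1087 of 1752 negative cells. Cells with 2 marker genes also had less *Col7a1* and more *Ebf2* than those with more. Among cells with at least 3 marker genes *Col7a1* was lower by a log2 fold change of -1.45, while *Dpt* was not called. *Prdm1* (1.12) and *Irx6* (1.81) were higher, though not by DESeq2, and of 9 upper dermis genes 1 was higher and 1 lower. *Col7a1* stood at 40.4 against 123 CPM in the forelimb and at 32.5 against 93.2 CPM in the hindlimb (-1.63 ± 0.08). *Pappa2* (-1.78), *Irx2* (-1.57), *Sp5* (-1.54) and *Grem1* (-1.32) were lower, and *Rspo1* stood at 12.4 against 66.9 CPM and at 4.30 against 33.8 CPM (-2.71 ± 0.14). *Sp5* was the 1 Wnt target of 11 that was called. *Sp5* and *Grem1* lost their calls with matched depth. Of 13 lower dermis and fascia genes, *Dpt* (-1.34), *Ly6a* and *Plac8* were lower, and 10 were lower with matched depth. *Rpl39l*, *Ctnna2* and *P4ha2* were the other large falls. Markers of skeletal cells moved with this split: 5 of 10 chondrocyte genes were higher, with *Sox9*, the cartilage factor, at 72.5 against 30.3 CPM in the forelimb (log2 fold change 1.39 ± 0.11), and 2 of 5 tendon genes were higher. *Ebf2* and *Ebf3* (1.29 and 1.12), *Foxp1* and *Foxp2* (1.30 and 1.54) were higher. With matched depth 3 chondrocyte genes and 1 tendon gene were higher, and of these 4 factors *Foxp2* alone. Of the immune genes *Lyz2* was lower (25.3 against 43.1 CPM in the forelimb and 7.88 against 29.6 CPM in the hindlimb), as were 4 of 5 with matched depth and 2 by DESeq2. Of the red blood genes *Hba-a1* was lower (-1.10), but not with matched depth or by DESeq2. How far cells with a cartilage or tendon character, immune RNA or red blood RNA add to the split was not tested. Of 20 cell division genes 0 were called, with values from -0.46 to 0.00, where 1.55% of all genes tested were higher and 0.734% lower.

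Forelimb and hindlimb dermal fibroblasts were set side by side without a test. Of 3903 genes with at least 50 CPM in 1 of the limbs, 8 were at least 2-fold higher in the forelimb (0.205%) and 8 in the hindlimb (0.205%). *Tbx5*, the forelimb factor, stood at 64.9 CPM in the forelimb and 5.50 CPM in the hindlimb (1438 and 122 UMIs). *Pitx1*, the hindlimb factor, stood at 0.361 and 54.0 CPM (8 and 1197 UMIs). *Tbx4*, below the 50 CPM limit, stood at 3.75 and 25.6 CPM. These 3 genes went with the limb on the label.

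*HoxC* genes differed between limbs to unequal extents. *Hoxc4* (12.1 and 9.74 CPM), *Hoxc5* (5.24 and 8.07 CPM) and *Hoxc6* (14.6 and 16.0 CPM) had the nearest levels, *Hoxc8* was at 4.92 CPM in the forelimb and 11.9 CPM in the hindlimb, and *Hoxc9* at 0.271 and 10.7 CPM. *Hoxc10* had 1 UMI in the forelimb and 955 UMIs in the hindlimb, and *Hoxc11* had 1 and 270 UMIs. Among hindlimb cells *Hoxc10* was found in 26.4% of the dermal fibroblasts.

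Beyond the patterning genes, *Rspo1* (53.4 and 24.5 CPM) and *Clec3b* (63.2 and 21.5 CPM) were higher in the forelimb. *Foxp2* (107 and 285 CPM), *Cpa6* (47.1 and 139 CPM), *Lrp1b* (36.2 and 121 CPM), *Unc5c* (52.0 and 112 CPM) and *Sfrp2* (61.7 and 133 CPM) were higher in the hindlimb. All of these genes differed the same way in other stromal cells, so the differences are not particular to dermal fibroblasts. There *Rspo1* stood at 3.18 and 1.68 CPM, *Clec3b* at 116 and 42.4 CPM and *Foxp2* at 276 and 425 CPM. *Cpa6* stood at 32.8 and 62.3 CPM, *Lrp1b* at 54.2 and 95.5 CPM, *Unc5c* at 151 and 242 CPM and *Sfrp2* at 94.2 and 266 CPM. The mast cell protease genes *Cma1* (175 and 73.3 CPM), *Cpa3* (135 and 60.1 CPM) and *Tpsb2* (58.2 and 16.7 CPM) were higher in the forelimb. Their UMIs lay in few cells: the 10 cells with the most *Cma1* held 50.5% of its UMIs among forelimb and 79.3% among hindlimb dermal fibroblasts. The same share was 6.82% for *Tbx5* in the forelimb. In the hindlimb *Lrp1b* (34.4%), *Clec3b* (27.9%), *Foxp2* (22.9%) and *Unc5c* (18.1%) also had many of their UMIs in 10 cells. In the forelimb the share was 28.7% for *Lrp1b*, 24.3% for *Unc5c*, 21.2% for *Cpa6*, 17.7% for *Foxp2* and 15.2% for *Clec3b*. *Cma1* was also found among other stromal cells, at 193 and 157 CPM. Whether mast cells were captured with these cells was not tested.

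**Figure D5:**
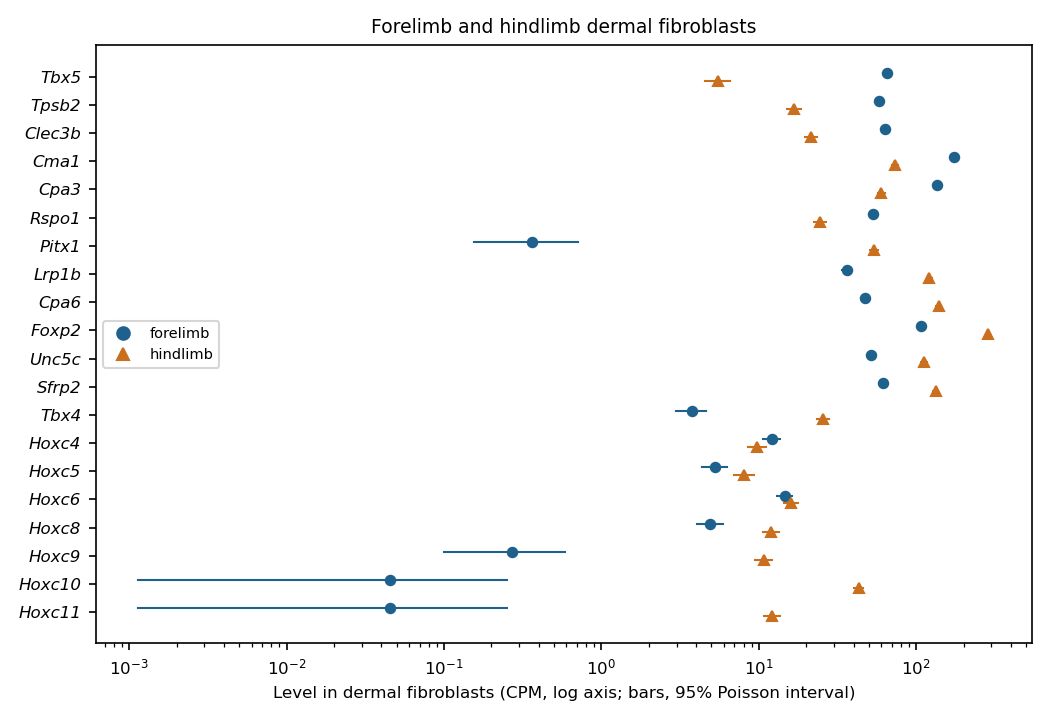
Levels (CPM, log axis) in forelimb (circles) and hindlimb (triangles) dermal fibroblasts with exact 95% Poisson intervals, which cover counting error only, for the 6 genes with the largest ratio each way, *Tbx4* and 7 *HoxC* genes. *Tbx5* stood at 64.9 and 5.50 CPM and *Pitx1* at 0.361 and 54.0 CPM.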

How the data were processed

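Per the labels and the study's methods, tissue was dissociated, libraries were made with the 10X Genomics kit, and the authors counted UMIs with Cell Ranger 7.0.0 on the mm10 genome. The deposited matrices hold whole UMI counts, not normalized, with genes in rows and barcodes in columns. Whether introns were counted is not given in the sources used here. The limb libraries held 156060382 UMIs in 28266 barcodes (forelimb) and 162335993 in 25937 (hindlimb). The rule that chose the cells, the gene lists and the tests were set with earlier results of these data known. Its limits of 100 and 9000 were read as genes per cell. The study's own filter had a higher upper limit for the hindlimb and a minimum of log10 genes per log10 UMI, which were run as alternatives.

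UMI counts were summed per limb library and cell set, because cells are not replicates. Sets were compared with edgeR 4.0.16 (R 4.3.3, limma 3.58.1; TMM, filterByExpr, library as a block, quasi-likelihood test, Benjamini-Hochberg adjustment over all genes tested), at an adjusted p under 0.01, a 2-fold change and the same direction in both limbs. Rule genes and mitochondrial genes were not tested. A standard error is the size of the log2 fold change divided by the root of the F value. Each comparison has 4 sums and 1 residual degree of freedom, the limbs are not replicates of each other, and nothing says that they came from separate embryos, so p-values measure only the spread between these 2 libraries. On simulated counts for the comparison with other stromal cells, edgeR called 90.1% and DESeq2 73.9% of genes changed by 1.5 on the log2 scale. Of those changed by 2, they called 93.3% and 83.1%. For the *Lmx1b* and *Hox13* splits, edgeR called 84.4% and 85.9% at 1.5, and 96.4% and 99% at 2. Every simulated gene had the same dispersion, the common value of the real fit, and the same fold in both limbs. Calls there did not require the same direction in both limbs, so these rates need not hold for the real counts. The rate of false calls in the real counts was not tested.

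Named genes were the 12 (other stromal cells), 8 (*Lmx1b*, *Hox13*) or 6 (limbs) largest changes each way with at least 50 CPM in the higher set, all rule genes, and up to 4 members of each list with those of textbook role. Doublets were scored by the Scrublet method within each library and kept, and left out as an alternative. Shares were compared after thinning each cell to 4000 UMIs, with cells of fewer UMIs left out. This kept 2305 of 2695 forelimb and 2159 of 2309 hindlimb dermal fibroblasts. It removed a larger part of the other stromal cells, of which 8689 of 12432 and 9576 of 12091 were kept. The *Lmx1b* share was given at 8000 UMIs, which left 887 and 1014, so it cannot be set beside shares at 4000 UMIs. Intervals cover counting error only. Other tests, filters and cell sets were run as alternatives. Penis libraries entered no comparison. Some genes are not reported here.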

Additional observations from a re-analysis of the deposited data

Results flagged for a closer look

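In the 3 penis libraries at postnatal day 6, which no comparison uses, 397 of 19633 kept cells passed the gene rule of the limb dermal fibroblasts. These were 141, 154 and 102 cells, or 2.07%, 2.17% and 1.78% of the kept cells. *Crabp1* was found in 94.3 to 97.1% and *Lix1* in 79.9 to 84.3% of them, while *Irx1* was found in 2.84 to 6.49%, against 59.6% and 56.0% of limb dermal fibroblasts. *Bcl11b* was found in 12.7 to 14.3% and *Nrgn* in 5.88 to 9.09%, against 66.8% and 65.3%, and 35.9% and 30.1%, in the limbs. These cells thus passed mostly on *Crabp1* and *Lix1*. The penis cells were of another age and deeper, with medians of 10609.5 to 12974 UMIs. They were kept at 500 to 6000 genes detected and at most 5% mitochondrial counts, which are not the limits of the limb cells.

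Among list and named genes with at least 10 CPM in each limb and a log2 ratio of at least 0.5 either way in both, 2 had opposite directions in the limbs, and the difference was not tested. Genes at lower levels or with smaller ratios also differed in sign and were not looked at further. *Plac8*, a gene of fascia cells, had a log2 ratio of 0.57 in the forelimb and -0.51 in the hindlimb between dermal fibroblasts and other stromal cells. *Acta2*, smooth muscle actin, had a log2 ratio of 1.02 in the forelimb and -0.50 in the hindlimb between *Hox13*-positive and *Hox13*-negative dermal fibroblasts. Neither gene was called.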

How the results depend on the processing

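Both cell sets of a comparison came from the same library, and the library term paired them in every main fit. Between the limbs, no paired analysis was possible because they share only 1 replicate number. Against other stromal cells, higher and lower calls were 484 and 735. They were 267 and 323 against *Twist2*-positive cells (249 and 271 shared) and 204 and 177 without the library term. Lower calls were 433 by DESeq2 and 354 with exclusion-gene cells left out at matched depth, a setting chosen after seeing the data, where *Ttn* turned to a log2 fold change of 0.057. By *Lmx1b* (47 and 11), calls were 115 and 21 with at least 3 markers, 25 and 1 by DESeq2, 82 and 45 without a filter on low counts, and 1 and 0 without the library term. Lower calls were 48 at matched depth and 7 without cells scored as doublets. By *Hox13* (251 and 119), calls were 59 and 17 without the library term. Lower calls were 220 at matched depth (73 shared), 76 by DESeq2 and 217 without the low-count filter. The causes were not tested. With 1 limb left out no test is possible, and *Lmx1b* genes 2-fold lower with 50 CPM numbered 0 to 5. Genes 2-fold higher in the hindlimb numbered 5 at matched depth. Dermal fibroblasts in forelimb and hindlimb numbered 4514 and 4070 with at least 1 marker, 1772 and 1328 with 3, 2117 and 1782 with 2 *Twist2* UMIs, 2838 and 2454 without exclusion genes, and 2501 and 2207 without cells scored as doublets. Unthinned, and thinned to 2000 and 8000 UMIs, *Lef1* was found in 32.5%, 14.4% and 26.6% of forelimb and 31.2%, 12.7% and 24.2% of hindlimb cells, and *Mki67* in 35.7%, 20.2% and 51.8% and in 38.1%, 20.5% and 51.6%. Genes under 50 CPM rest on few molecules per cell.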
